A study of Drosophila melanogaster with 4 samples.

Results

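Broad H3K4me2 domains were the stretches of continuous enrichment wider than 8 kb in the embryo of Drosophila melanogaster. They were taken from the authors' combined list of enriched regions, as regions on 2L, 2R, 3L, 3R, 4 or X whose end minus start plus 1 base exceeded 8000 bp. This rule gave 242 domains of 5294 regions on these 6 sequences (4.57%), out of 5383 regions in the whole list. The other 89 regions lay on unplaced (U) and heterochromatic sequences, where the widest was 5008 bp. The domains were thus chosen by their width in the combined list, itself made from both ChIP libraries, so their widths, scores and continuity are given as descriptions without a test.

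The libraries came from wild-type embryos of the Oregon-R strain (Oregon-R-modENCODE), collected at 14 to 16 h of development, when nerve, muscle and epidermis differentiate. There were 2 ChIP libraries, precipitated with an H3K4me2 antibody from Abcam, and 2 input libraries without antibody, 1 for each ChIP. Whole embryos were used, so a domain is the sum over all their cell types, and enrichment in a few tissues cannot be told apart from weak enrichment in all. Nothing in the labels tells whether different embryos went into each replicate, so the replicate spread given here could be purely technical. The authors deposited 1 list per ChIP replicate and 1 for both together, on FlyBase release 5, and the labels name each input as the control of 1 ChIP list. The read depth is unknown.

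H3K4me2 is histone H3 dimethylated on lysine 4. Enzymes of the COMPASS family, in Drosophila Set1, Trithorax and Trithorax-related, methylate this lysine, and the dimethyl form lies around active promoters, downstream of the trimethyl form, and at enhancers.  Long unbroken stretches of H3K4 methylation are known in mammalian cells mainly from genes of cell identity and transcription factors, with the trimethyl form studied most. The lists hold positions and scores only, and no gene annotation or genome of release 5 was used, so the domains are named by arm and position.

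The domains were a long tail of the width distribution. The narrowest was 8029 bp, the median 9654.5 bp and the widest 18765 bp, against a median of 3138.5 bp over all regions on the same sequences. Of the 242, 105 exceeded 10 kb, 37 exceeded 12 kb and 13 exceeded 15 kb. Together they covered 2.48 Mb, which was 12.5% of the 19.8 Mb of enriched sequence and 2.06% of the 120.4 Mb of these sequences. The number of regions declined steadily through the boundary, with 143 of 7 to 8 kb, 88 of 8 to 9 kb and 49 of 9 to 10 kb. The 3 domains just inside it were 8029, 8030 and 8048 bp wide, with combined scores of 2.10, 2.94 and 3.09. The 3 regions just outside were 7993, 7988 and 7979 bp wide, with combined scores of 1.72, 1.99 and 2.46. The score is the authors' value for each region on a scale that was not stated.

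The replicate lists held fewer regions past 8 kb than the combined list. Replicate 1 had 210 and replicate 2 had 162. Of the 242 domains, 154 were overlapped by a region over 8 kb in both replicates, 52 in replicate 1 only, 7 in replicate 2 only and 29 in neither. The 29 were mostly close to the boundary, with a median combined width of 8822 bp and a maximum of 12821 bp, and 18 of them were split in at least 1 replicate. In the other direction, 4 regions over 8 kb of replicate 1 and 1 of replicate 2 overlapped no domain.

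No domain was missing from either replicate. Replicate regions covered 97.5% (replicate 1) and 95.3% (replicate 2) of all domain bases, with a mean of 96.4% ± 1.6 (SD, n = 2). Per domain the covered share had a median of 99.1% in replicate 1, with a range of 68.5% to 100%, and of 97.5% in replicate 2, with a range of 50.9% to 99.97%. It was larger in replicate 1 for 184 of the 242. The share was below 90% in 20 domains in replicate 1 and 35 in replicate 2. The outer ends were also close. Both ends lay within 250 bp of those of the combined list in 192 domains in replicate 1 and 164 in replicate 2.

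**Figure D1:**
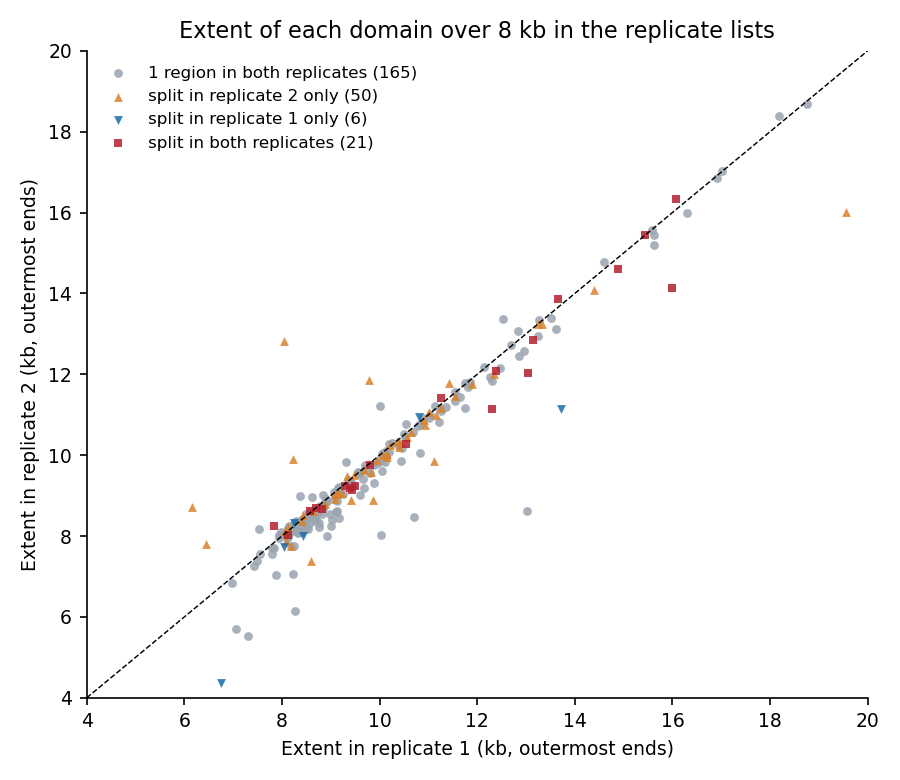
Each point is 1 of the 242 domains, placed by the distance in kb between its outermost ends in replicate 1 (horizontal) and replicate 2 (vertical), and the dashed line marks equal extents. The 21 domains split in both replicates (squares) and the 50 split in replicate 2 only (triangles pointing up) lie mostly near the line, as do the 165 called as 1 region in both. An exception is a 2R domain of 8035 and 12832 bp that ends at 18529811. It counts as split in replicate 2 only through a piece from 18529809 to 18534675, which lies almost wholly past its end.

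Continuity differed between the replicates. A domain was called continuous in a replicate when exactly 1 region of that list had at least 1 bp in common with it. In replicate 1, 215 of 242 domains were continuous (88.8%, Wilson 95% interval 84.3 to 92.2) and in replicate 2, 171 (70.7%, interval 64.6 to 76.0). The mean was 79.8% ± 12.9 (SD, n = 2). The intervals cover counting error only. Over all regions of the combined list the share was 90.6% in replicate 1 and 87.9% in replicate 2, where most of the remainder were narrow regions absent from that replicate. Both replicates called 165 domains as 1 region (68.2%), against 84.8% of all regions and 91.8% of the 1492 regions of 4 to 8 kb.

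The other 77 domains were split in at least 1 replicate. Replicate 1 divided 27 domains (11.2%, interval 7.78 to 15.7), 25 into 2 pieces and 2 into 3. Replicate 2 divided 71 (29.3%, interval 23.96 to 35.4), 66 into 2 and 5 into 3. Over all regions, splitting affected 1.76% in replicate 1 and 3.19% in replicate 2. A wider region has more room for a break, and the replicate lists held no region under 1302 and 1305 bp, so a region of the narrowest class can hardly be split. Counted per 100 kb of combined width, breaks numbered 1.17 in replicate 1 and 3.07 in replicate 2 in domains, against 0.78 and 1.14 in regions of 4 to 8 kb. These rates use the full width. The minimum width of a piece leaves a smaller part of a region of 4 to 8 kb open to a break than of a domain. The rates thus do not fully remove the effect of width. By width, replicate 2 split 16.1% of regions of 7 to 8 kb, 20.5% of 8 to 9 kb, 32.7% of 9 to 10 kb, 32.4% of 10 to 12 kb and 40.5% over 12 kb. Replicate 1 split 8.39%, 9.09%, 12.2%, 5.88% and 24.3% of the same classes. The shares on either side of 8 kb were thus similar in each replicate, and those over 12 kb were the highest.

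**Figure D2:**
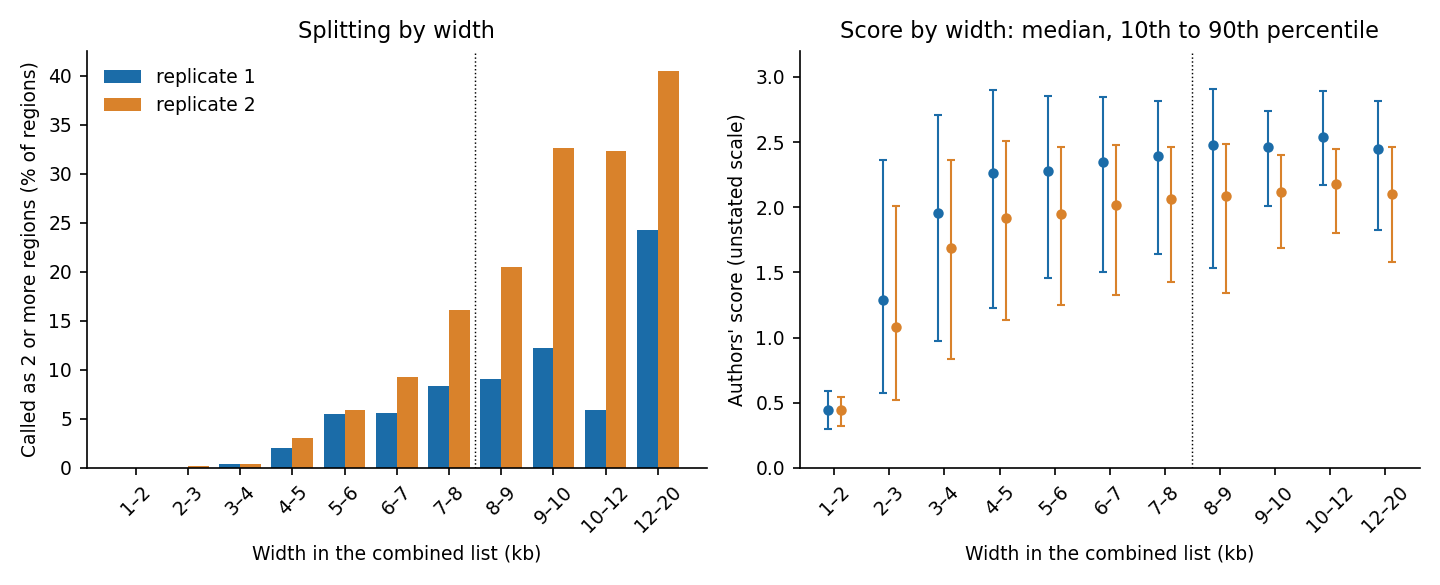
The left panel gives the percentage of combined regions called as 2 or more regions in replicate 1 and replicate 2, and the right panel their median score (points) with the 10th to 90th percentile (bars), by width in kb. The dotted line marks 8 kb: the split share is highest over 12 kb, at 24.3% and 40.5%, with a low value of 5.88% between 10 and 12 kb in replicate 1, while the median score changes little beyond 4 kb.

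Most breaks were short, and most split domains kept their outer ends. Both ends lay within 250 bp of those of the combined list in 21 of 27 split domains in replicate 1 and 51 of 71 in replicate 2. Split domains held 29 gaps in replicate 1 and 76 in replicate 2. Those of replicate 1 include a gap of 0 bp, where neighbouring pieces abut with no base between them. The median gap was 67 bp in replicate 1, with 19 of 29 under 100 bp and a longest of 1265 bp. It was 204 bp in replicate 2, with 23 of 76 under 100 bp, 57 under 500 bp and a longest of 1536 bp. Gaps took up 0.20% and 1.08% of domain bases, less than the 2.47% and 4.73% that lay outside the replicate lists in all. When replicate regions less than 500 bp apart were joined, 95.7% of domains were continuous on average over the replicates. The longest piece of a split domain made up a median of 62.7% of its width in replicate 1 and 56.3% in replicate 2.

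Where both replicates split a domain, they usually split it at the same place. Both lists divided 21 domains. In 18 of them a gap of replicate 1 had its centre within 250 bp of a gap of replicate 2. One of the longest recurrent gaps lay in the 2R domain from 14292680 to 14303111, spanning 14296095 to 14297259 in replicate 1 (1165 bp) and 14295927 to 14297325 in replicate 2 (1399 bp). The 3 domains with breaks at different places were 3L 627770 to 644359, 3L 1643126 to 1654525 and 3R 7038453 to 7054010. Of all gaps, 28 of 29 in replicate 1 and 73 of 76 in replicate 2 were centred in the middle 60% of the domain, which the minimum region width of the lists favours, since a piece must itself reach that width. The plot of gaps shows them spread through that middle part.

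**Figure D3:**
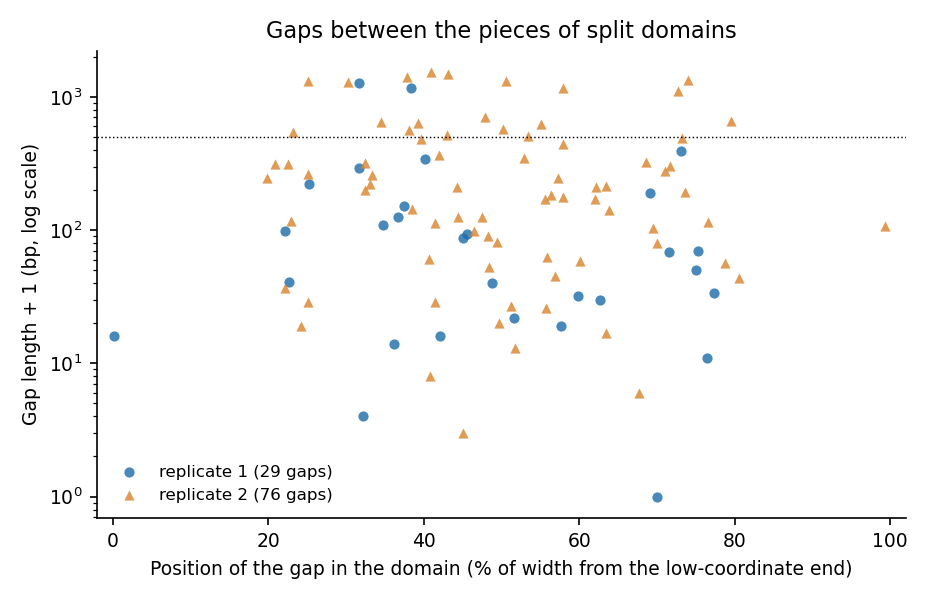
Each point is a gap between neighbouring pieces of a split domain, placed by its centre as a percentage of the domain's width (horizontal) and by its length plus 1 bp on a log scale (vertical). The dotted line marks 500 bp: 27 of 29 gaps of replicate 1 and 57 of 76 of replicate 2 are shorter.

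Counting pieces over both lists, 3 domains had 5 pieces and 22 had 4, and the latter were 8194 to 15558 bp wide, with a median of 10171 bp. The 3 with 5 pieces and the 5 widest of those with 4 are described here, so their width is partly a matter of the choice. The 3L domain from 627770 to 644359 (16590 bp) had 3 pieces in replicate 1, of 4480, 2188 and 8102 bp, with scores of 1.53, 0.63 and 1.52. In replicate 2 it had 2 pieces, of 6029 and 8775 bp, with scores of 1.40 and 1.29. The middle piece of replicate 1 thus scored below both its neighbours, and replicate 2 left a gap of 1536 bp over most of it. It was covered to 89.0% and 89.2%, and its mean score of 1.36 was below the list medians.

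The X domain from 1272645 to 1285465 (12821 bp) showed an uneven profile in both replicates. Replicate 1 divided it into pieces of 4980 and 7726 bp with scores of 2.22 and 1.38. Replicate 2 divided it into pieces of 5108, 3397 and 2883 bp with scores of 1.91, 0.90 and 1.27. The low-coordinate piece had the highest score in both lists, and the first gap fell at nearly the same place, with centres 237 bp apart.

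Other divided domains had strong pieces on both sides of the break. The X domain from 1352547 to 1368370 (15824 bp) consisted of pieces scoring 3.04 and 2.99 in replicate 1 and 2.46, 2.46 and 2.80 in replicate 2. The X domain from 11239858 to 11254811 (14954 bp) had pieces scoring 3.22 and 2.82 in replicate 1, 18 bp apart, and 2.79 and 2.47 in replicate 2, 1161 bp apart. The X domain from 11601783 to 11616364 (14582 bp) was a single region in replicate 1 with a score of 2.39 and 3 pieces in replicate 2 scoring 2.49, 1.75 and 1.85. On 3L, the domain from 21015887 to 21030091 (14205 bp) was cut 10 bp wide in replicate 1 and 115 bp wide in replicate 2 at centres 9.5 bp apart. The X domain from 15744616 to 15757842 (13227 bp) was cut by 109 bp and 260 bp with centres 187.5 bp apart. The widest domain of 3R, from 7038453 to 7054010 (15558 bp), had a gap of 13 bp in replicate 1 and of 43 bp in replicate 2, 6896 bp away.

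At the other end, 22 of the 37 domains over 12 kb were 1 region in both lists. The widest of 2R, from 8054354 to 8072698, measured 18174 bp in replicate 1 and 18386 bp in replicate 2. The widest of X, from 508508 to 525873, measured 17023 bp and 17031 bp. The only domain of chromosome 4, from 1045284 to 1055414, measured 10119 bp and 9838 bp, with scores of 2.17 and 1.85. In all 3 the replicates differed in extent by far less than the width of the narrowest listed region.

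The replicates differed most in covered share in 5 domains, of which 3 scored below the median of all regions in both lists. The 3R domain from 3999880 to 4008439 (8560 bp) had the lowest score, 0.88 in replicate 1 and 0.77 in replicate 2. Replicate 1 covered 76.3% of it in pieces of 1324 and 5208 bp, and replicate 2 covered 50.9% in 1 region of 4356 bp. On 2R, the domain from 11980029 to 11988078 was covered to 100% in replicate 1 and 76.5% in replicate 2. The 3R domains from 21704027 to 21712218 and from 5164126 to 5175075 were covered to 89.1% and 97.8% in replicate 1 and to 67.5% and 77.4% in replicate 2. On X, the domain from 12552667 to 12561652 went the other way, with 68.5% in replicate 1 and 89.7% in replicate 2. Continuity as counted here did not record these losses, since 3 of the 5 were 1 region in both lists.

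Some domains touched neighbours in a way that made their limits depend on the list. In the combined list the 2L domain from 19569568 to 19586258 ended 5 bp before the next region, and replicate 1 had 1 region of 19562 bp that ran on beyond that break. The 2L domain from 5976068 to 5985373 ended 16 bp before its neighbour and was part of a region of 13015 bp in replicate 1, against 8612 bp in replicate 2. The X domain from 6420336 to 6431520 began 6 bp after its neighbour, and 1 of its 3 pieces in replicate 1 belonged almost wholly to that neighbour. The 2R domain from 18521782 to 18529811 ended 34 bp before its neighbour. One of its pieces in replicate 2, from 18529809 to 18534675, lay almost wholly past its end, so its split there came from the counting rule. Of the 242 domains, 43 (17.8%) had another combined region less than 500 bp away, close to the 17.3% of regions of 4 to 8 kb. Joining combined regions less than 500 bp apart gave 383 regions over 8 kb in place of 242.

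Domains scored above most regions, and their scores varied little with width. In replicate 1 the median score of domains was 2.49, with a 10th to 90th percentile of 1.75 to 2.88, against 2.29 for regions of 4 to 8 kb and 1.62 for those of 2 to 4 kb. In replicate 2 it was 2.12, with 1.53 to 2.46, against 1.96 and 1.37. Where a replicate split a domain, the score is the mean of its pieces weighted by their width. In each replicate 215 of 242 domains were above the median of all regions, 1.86 in replicate 1 and 1.601 in replicate 2. Across domains, Spearman's rho of width and score was 0.092 in replicate 1 and 0.11 in replicate 2 (n = 242), against 0.62 in both lists among all narrower regions (n = 4645 and 4582). Regions of 4 to 8 kb were like the domains in this, with 0.077 and 0.072 (n = 1492). Regions share neighbourhoods and libraries, so these values carry no p.

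Domains were frequent among the high scores without holding the highest. Regions of 4 to 8 kb reached 3.78 in replicate 1 and 3.14 in replicate 2, while domains reached 3.35 and 2.94. Of the 100 highest combined scores, 12 were domains, which made up 4.57% of all regions, and the median width of the 100 was 4614.5 bp. The 5 domains of highest mean score all lay on X. They were X 8032953 to 8041711, with 3.35 in replicate 1 and 2.91 in replicate 2, X 18272072 to 18280119, with 3.29 and 2.94, and X 1765817 to 1776406, with 3.26 and 2.83. X 11015072 to 11023877 had 3.30 and 2.77, and X 4440699 to 4449075 had 3.15 and 2.74. Among the 20 highest, 12 were on X, which held 51 of the 242 domains. The median score of domains differed little by arm. It was 2.52 in replicate 1 and 2.19 in replicate 2 on X, against 2.45 to 2.52 and 2.06 to 2.14 on 2L, 2R, 3L and 3R.

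Every domain that was 1 region in both lists scored higher in replicate 1 than in replicate 2 (165 of 165). The same held for 1337 of 1370 regions of 4 to 8 kb (97.6%). It held for 89.3% of regions of 2 to 4 kb and 49.0% of those of at most 2 kb. The median difference was 0.36 in domains, 0.31 in regions of 4 to 8 kb, 0.24 in regions of 2 to 4 kb and -0.0028 in regions of at most 2 kb. The scales of the replicate lists are not stated, so whether this is a difference in enrichment was not tested.

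Domains scoring below 1 were uncommon, and domains with lower combined scores were more often split than those with higher ones. A score below 1 was found in 1 domain in replicate 1 and 2 in replicate 2, while 25.2% and 29.1% of narrower regions were below 1. Besides the 3R domain at 3999880, the lowest mean scores belonged to 3L 13910829 to 13919037, with 1.16 and 0.99, and 3R 2634730 to 2642825, with 1.27 and 1.04. They were followed by 2R 5430255 to 5443795, with 1.42 and 1.14, and 2L 7808036 to 7816565, with 1.40 and 1.20. Of the 81 domains with combined scores of at most 2.13, replicate 1 split 15 and replicate 2 split 30. Of the 81 with scores of at least 2.39, they split 4 and 16. Both replicates thus divided fewer of the domains with high scores. The combined score comes from the same libraries as the replicate lists, so score and splitting are not independent and this is a description.

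The domains were found on all arms, and made up similar shares of the regions of the 5 large arms. There were 55 on 3R, 51 on X, 49 on 2R, 48 on 3L, 38 on 2L and 1 on chromosome 4. As a share of each arm's regions this was 4.39% on 3R, 5.42% on X, 4.55% on 2R, 4.65% on 3L and 4.08% on 2L, with overlapping Wilson 95% intervals, from 2.98 to 5.55 on 2L and 4.15 to 7.06 on X. Chromosome 4 had 1 of 58 regions (1.72%, interval 0.31 to 9.14). The combined list held 2.32 domains per Mb on 2R, 2.27 on X, 1.97 on 3R and 1.96 on 3L. It held 1.65 per Mb on 2L and 0.74 on chromosome 4. Per Mb, the replicate lists held 1.92 and 1.34 regions over 8 kb on X and 1.72 and 1.36 on the autosomal arms 2L, 2R, 3L and 3R. X exceeded the autosomal arms in replicate 1 and not in replicate 2, and the combined ratio was 1.16. Over 10 kb the combined ratio was 1.44.

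Along the arms the density of domains was uneven. In 57 whole windows of 2 Mb counted from the centromere, the number of domains ranged from 0 to 8 with a median of 4. The shorter remainder at the distal end of each arm and all of chromosome 4 fell outside these windows. The window next to the centromere held 2 domains on 2L, 0 of 62 regions on 2R, 0 of 28 on 3L, 5 on 3R and 1 of 43 on X. These were the only windows with 0 domains. The longest domain-free stretches reached 3371 kb at the centromeric end of 2R, 3064 kb on X (12561653 to 15625277) and 2511 kb on 2L (13837474 to 16348683). They were not free of enrichment, with 129, 128 and 60 narrower regions.

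The most distal 2 Mb of the 5 large arms held 35 domains among 511 regions (6.85%, Wilson 95% interval 4.97 to 9.38), against 206 among 4725 (4.36%, interval 3.81 to 4.98) in the rest of these arms. This comparison was chosen after the windows were seen. The share was 6.74% against 3.98% in replicate 1 and 5.67% against 2.99% in replicate 2, each from its own regions over 8 kb (mean 6.2% ± 0.76 against 3.5% ± 0.70 SD, n = 2). Distal sequence was also covered more by regions of any width, 18.4% ± 0.24 against 14.9% ± 0.39 (SD, n = 2). In the combined list the distal share was higher on 2L (8.33% against 3.66%), 3L (8.77% against 4.13%), X (7.55% against 5.15%) and 2R (5.22% against 4.45%). On 3R it was lower in the combined list (4.11% against 4.41%) and higher in both replicate lists, with 5.97% against 4.02% in replicate 1 and 4.29% against 2.93% in replicate 2. On each arm it rests on 3 to 10 domains, and the intervals overlap on every single arm and, narrowly, over all 5 arms. With 2 lists no p is given.

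**Figure D4:**
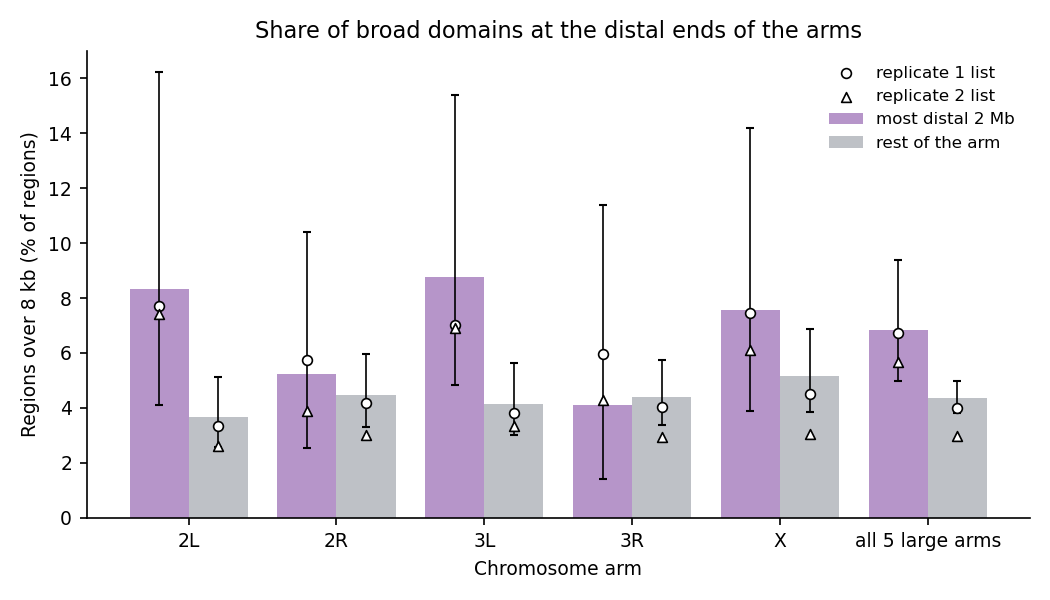
Bars give the percentage of combined regions wider than 8 kb in the most distal 2 Mb and in the rest of each arm, with Wilson 95% intervals; open circles and triangles give the same share in the lists of replicate 1 and replicate 2. The distal bar is the higher on 2L, 2R, 3L, X and over all 5 arms (6.85% against 4.36%), and the lower on 3R, where the replicate lists go the other way (5.97% against 4.02% and 4.29% against 2.93%).

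Domains were mostly solitary among themselves. Neighbouring domains of an arm were a median of 266.6 kb apart, with quartiles of 90.7 and 618.4 kb. Another domain lay within 50 kb of 76 of the 242 (31.4%, Wilson 95% interval 25.9 to 37.5), against 25.5% of all regions, 29.4% (27.1 to 31.7) of regions of 4 to 8 kb and 23.4% of regions of 2 to 4 kb. A share of 31.4% is thus near that of the next narrower class, whose interval overlaps. Nearness is mutual between domains, and neighbouring regions can share the same domain. The counts are therefore not independent, and these intervals are too narrow to separate the shares. The difference from narrower regions was 11.1 percentage points in the list of replicate 1 and 2.08 in that of replicate 2. Linking domains less than 50 kb apart gave 35 pairs and 2 triplets and left 166 alone. The triplets were on 3R from 11111977 to 11178574, with 39.3% of 66.6 kb in domains, and on 3L from 3157705 to 3228091, with 44.0% of 70.4 kb.

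In 11 pairs no other region lay between neighbouring domains. The closest was on 3R, where the domains from 7038453 to 7054010 and from 7054565 to 7065152 were 554 bp apart and together nearly filled 26.7 kb (97.9%). They scored 2.77 and 2.88 in replicate 1 and 2.41 and 2.45 in replicate 2. On 2L, domains of 9862 and 8922 bp from 2870971 to 2890406 were 652 bp apart, with scores of 2.56 and 1.98 in replicate 1 and 2.23 and 1.601 in replicate 2. On X, domains of 15824 and 8958 bp from 1352547 to 1378235 were 907 bp apart. On 2R, domains of 8092 and 9263 bp from 9106060 to 9124818 were 1404 bp apart, and on 3L the domains from 627770 to 644359 and from 647584 to 655935 were 3224 bp apart. The 3L pair joined unlike members, with mean scores of 1.36 and 2.43, while the members of the 3R pair differed by 0.08.

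The surroundings of domains held more enriched sequence than those of all narrower regions, and about as much as those of narrower regions of like score. In the combined list, other regions covered a median of 24.1% of the 50 kb on each side of a domain, with quartiles of 17.2% and 31.9%, against 21.1% around all narrower regions and 23.1% around those of 4 to 8 kb. In the replicate lists the medians were 23.2% against 20.0% in replicate 1 and 22.3% against 19.4% in replicate 2 (22.7% ± 0.57 against 19.7% ± 0.41 SD, n = 2). Around 1051 narrower regions with combined scores within the quartiles of the domains' own, the median was 23.9%. The difference of 3.04 percentage points from all narrower regions was 0.21 against these. They are the regions of like score here and below, though the domains set against them were kept whatever their own score.

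**Figure D5:**
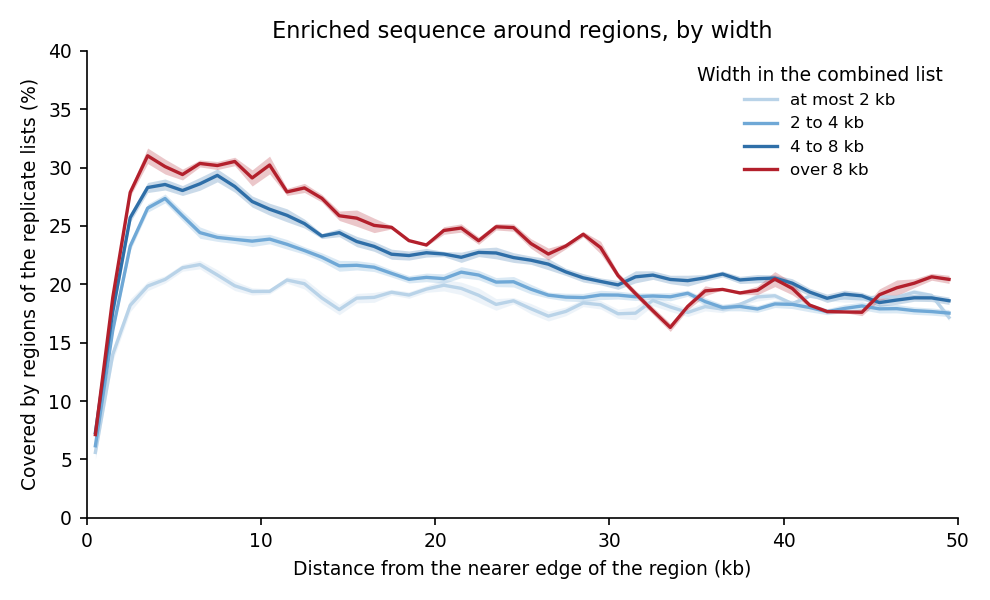
Lines give the percentage of sequence covered by regions of the replicate lists (mean of both; the band spans the replicates) in 1-kb bins by distance in kb from the nearer edge, for 4 classes of width in the combined list. The first bin is low for all classes, with 7.87% and 6.38% in the replicates for domains. Domains are highest between 3 and 4 kb, at 31.7% and 30.3%, against 28.7% and 27.9% for regions of 4 to 8 kb. Between 10 and 11 kb domains have 31.0% and 29.5%. Regions of 4 to 8 kb have 26.9% and 25.9% there, and those of 2 to 4 kb 24.3% and 23.5%. Beyond 30 kb the lines approach and cross. Between 33 and 34 kb domains are the lowest class, at 16.7% and 16.0%.

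The free distance next to domains was shorter than for all narrower regions and longer than for narrower regions of like score. The nearest region was a median of 2428 bp away from a domain, edge to edge, against 2929.5 bp for all narrower regions, 2479 bp for those of 4 to 8 kb and 1897 bp for the 1051 regions of like score. In the replicate lists it was 2799.5 and 2559 bp for regions over 8 kb (mean 2679 ± 170 SD, n = 2) against 3051 and 3041 bp. The nearest region had a median width of 3541.5 bp next to domains and 3154.5 bp next to narrower regions, and a median combined score of 1.90 and 1.67. It was itself a domain for 12 of 242 domains (4.96%) and for 4.65% of narrower regions.

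A few domains stood alone. Over 20 kb was free on both sides of 16 domains (6.61%), against 9.40% of narrower regions, and 3 had no other region within 50 kb. These were 2L 1413182 to 1421290, with free stretches of 152811 and 80205 bp, 2L 21827752 to 21836277, with 67803 and 182242 bp, and 3R 6430574 to 6440643, with 187918 and 63550 bp. Their scores were 1.67, 1.53 and 1.64 in replicate 1 and 1.35, 1.33 and 1.32 in replicate 2, all below the median of all regions. All 3 were also cut back in the replicate lists, covered to 79.5%, 81.9% and 88.5% in replicate 1 and to 89.5%, 80.2% and 79.5% in replicate 2. The next in order were 3R 14916432 to 14925178, with at least 46543 bp free on each side and scores of 2.20 and 1.96, and 3R 2634730 to 2642825, with at least 43670 bp free.

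Over all 16, the median score was 2.17 in replicate 1 and 1.87 in replicate 2, against 2.50 and 2.13 for the other 226 domains. The same order held among narrower regions, with 1.30 and 1.10 for those with over 20 kb free on both sides and 1.87 and 1.61 for the rest. Isolated domains and isolated narrower regions both scored lower than the rest of their class, and 5 of the 16 were below the median of all regions in each replicate.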

How the data were processed

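The authors deposited 3 lists of significantly enriched regions, with a score for each region. Per the file headers, coordinates are those of FlyBase release 5. For the aligner, region caller, threshold, score scale, normalization to input, read depth and way of combining replicates, nothing is given in the sources used here. Values from the combined list are the authors' and carry no SD. The list of replicate 1 holds a region that starts at base 0. Positions were used as given, read as 1-based and inclusive.

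The comparison of lists used pandas 2.3.3 and numpy 2.4.6, the Wilson intervals and rank correlations scipy 1.17.1, and the plots matplotlib 3.10.9, all under Python 3.11.15. A piece needed 1 bp in common with a domain. Free distances run from edge to edge, and flanks were clipped at the ends of the arm. Windows were counted from the centromere, which lies past the last base of 2L, 3L and X and before the first of 2R and 3R. Counts of pieces and covered bases were tested on simulated data, with 242 of 242 domains recovered. The one gene table in the reference has release 6 coordinates, so no gene was assigned and no sequence is shown. Members, rules and lists were chosen with earlier results of these data known. Domains described singly followed fixed rules: the widest per arm, the 8 with the most pieces over both lists (ties taken by width), the 5 extremes of score, of free distance and of disagreement between replicates, the 5 closest pairs, and the 3 on each side of 8 kb; the 2R domain with a recurrent gap, the triplets and the 3 domains with unmatched gaps were chosen after their values were seen. With 2 lists no test was run. Alternatives were other width thresholds, merging, flank lengths, comparison groups and each replicate alone.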

Additional observations from a re-analysis of the deposited data

How the results depend on the processing

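Of 45 alternatives to 9 results, 23 stayed within the spread between the replicate lists (for the number of domains, within 1.5 times), 20 moved further and 2 changed direction. The spread is the SD of the values from each replicate alone. For results given as the mean of both replicates, each replicate alone lies within it by construction, so those alternatives could not move. The number of domains was 385 over 7 kb, 105 over 10 kb and 383 with regions under 500 bp apart merged, and 162 to 210 with a replicate left out. The share called as 1 region was 95.7% with replicate regions under 500 bp apart merged, and ran from 70.7% to 88.8% with 1 replicate left out. The covered share of domain bases ran from 95.3% to 97.5% with 1 replicate left out. The ratio of X to the autosomal arms per Mb was 1.44 over 10 kb, and ran from 0.99 to 1.12 in the replicate lists.

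The median free distance, domains minus narrower regions, was -501.5 bp. It was 3002 bp when measured from centre to centre, a measure that includes part of each region's own width, and 531 bp against regions of like score. It was -1019 bp after merging, -220.0 bp over 10 kb and -51.0 bp against regions of 4 to 8 kb, and ran from -482.0 to -251.5 bp in the replicate lists. Flank coverage differed by 4.43 percentage points over 20 kb, 1.36 over 100 kb, 0.21 against regions of like score and 0.97 against regions of 4 to 8 kb, and by 2.90 to 3.14 in the replicate lists. The share with another domain within 50 kb differed by 6.17 percentage points, and by 2.08 to 11.1 in the replicate lists. The spread of this difference, 6.38 points, exceeded the difference itself, and every alternative to it counted as within the spread. The median score difference of 0.62 was 0.18 against regions of 4 to 8 kb, and 0.56 to 0.67 with 1 replicate left out. The distal share differed by 1.71 percentage points with windows of 1 Mb, 1.12 with 4 Mb and 1.92 over 10 kb, and by 2.68 to 2.75 in the replicate lists. Where no construction explains a shift, the cause was not tested. The comparisons with regions of like score, and with those of 4 to 8 kb for distance and flanks, and all distal windows, were chosen after seeing the data. No paired analysis was possible because the inputs, which share the replicate numbers of the ChIP libraries, have no list of their own. Depth is unknown, so whether the more frequent splitting in replicate 2 goes with fewer reads was not tested.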
